A study of Mus musculus with 4 samples.

Results

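The genes described here are 10 that encode the enzymes of DNA methylation and the core of Polycomb repressive complex 2 (PRC2), out of 12417 genes kept from 4 RNA-seq libraries of sorted mouse bone marrow cells. They were chosen by symbol, namely the DNA methyltransferases Dnmt1, Dnmt3a and Dnmt3b, the methylcytosine dioxygenases Tet1, Tet2 and Tet3, and the PRC2 subunits Ezh1, Ezh2, Eed and Suz12. All 10 had exactly 1 row, with a value above 0, in each of the 4 libraries. The list was proposed with values of these libraries known, so the values are a description and no test was made on them.

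The libraries compared wild-type (WT) C57BL/6 mice with mice of that strain lacking GRK6, a G protein-coupled receptor kinase, in hematopoietic stem cells (HSC, gated as Lin-c-kit+sca-1+) and in common lymphoid progenitors (CLP, the same gate with Il-7Ra+). By the study's text the animals were adult littermates, and the knockout is a germline deletion of exons that the Grk6 splice variants share. Each group was 1 library, pooled from the cDNA of 13 to 15 cells of 3 to 4 mice that was amplified cell by cell with 20 and then 10 cycles of PCR. There were therefore no replicates, and how far mice or cells of 1 group differ is not known. The HSC gate holds multipotent progenitors beside stem cells and does not exclude Il-7Ra+ cells.

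DNA methylation in mammals is a methyl group on cytosine, mostly where a guanine follows. Dnmt1 copies the mark to the new strand after replication, Dnmt3a and Dnmt3b place it on unmethylated DNA, and the TET enzymes oxidise it, which leads to its removal. PRC2 methylates lysine 27 of histone H3, a mark of silent genes. Its catalytic subunit is Ezh2 or its paralog Ezh1, Eed binds the finished mark and Suz12 holds the complex together. In blood, Dnmt3a and Tet2 are known for their part in stem cell self-renewal and in clonal expansion of mutant stem cells, and Ezh2 is known as the paralog of dividing cells, whereas Ezh1 is kept in cells that divide little.

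The targeted gene did not check the labels. Grk6 had 42.7 (WT) and 89.4 FPKM (GRK6-/-) in HSC and 26.9 (WT) and 57.6 FPKM (GRK6-/-) in CLP, where FPKM are fragments scaled to transcript length and to all mapped fragments. It was thus higher in both libraries labelled GRK6-/-, and 1 value per gene cannot tell the deleted exons from the others. All directions given below therefore refer to the libraries as labelled. The FPKM were scaled to an estimated 2790000 to 4360000 fragments per library, read from steps in the lowest values. Between 74.4% and 81.6% of the low values used lay near such a step. The study states more paired reads than this for each lineage, and how the numbers relate was not tested. All fragment counts and intervals below rest on this estimate. Of 7 CLP markers fixed from general knowledge, 7 had a value in WT CLP and 6 in GRK6-/- CLP, against 2 in WT HSC and 4 in GRK6-/- HSC. The 2 in WT HSC were Flt3 with 54.5 and Dntt with 113.8 FPKM. These counts do not show that the CLP libraries were alike. Rag2 had 94.5 FPKM in WT CLP and no value in GRK6-/- CLP, and Rag1 had 23.0 and 2.47. Ebf1 ran the other way, with 25.0 and 82.0 FPKM, and the other 4 differed less than 2-fold on FPKM + 1. Il7r, part of the CLP gate, had 120.1 and 75.1 FPKM in the libraries labelled WT CLP and GRK6-/- CLP, 1.08 in GRK6-/- HSC and no row in WT HSC. Kit, part of both gates, lay between 26.2 and 81.8 FPKM, while Ly6a, which encodes Sca-1, was not among the genes kept. The genes kept leave out symbols named in rows with several genes. The 8 myeloid markers summed to between 7371 and 16103 FPKM, in all 4 libraries.

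In mm9, the build of the deposited loci, the 10 genes lie on 8 chromosomes (2, 3, 6, 7, 9, 10, 11 and 12). The locus deposited for Ezh2 was 47480139 to 47545029 of chromosome 6 and that for Ezh1 was 101052429 to 101087764 of chromosome 11, both on the minus strand. The extent of a row differed between libraries by at most 1 base for 8 of the genes, by 134 bases for Ezh2 and by 548 bases for Dnmt1. The longest annotated coding transcript (GENCODE vM1) had 2.07 kb for Eed, 2.65 kb for Ezh2 and between 4.21 and 5.26 kb for Ezh1, Dnmt3b, Suz12 and Dnmt1. Those of Tet2, Dnmt3a, Tet3 and Tet1 were far longer, with 9.18, 9.69, 10.9 and 14.4 kb.

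The promoters of Ezh1 and Ezh2 are shown because the ratio of these alternative catalytic subunits ranged from 8.03 to 51.2 over the libraries, in favour of Ezh2, and because the CG dinucleotide is the site on which the methyltransferases act. Each run is the 250 bases before the RefSeq start, on the sense strand, from a table in build GRCm38.p6, and each had 1 exact match in mm9. The capitals mark every CG.
Ezh1, chr11:101087778-101088027 of mm9, minus strand: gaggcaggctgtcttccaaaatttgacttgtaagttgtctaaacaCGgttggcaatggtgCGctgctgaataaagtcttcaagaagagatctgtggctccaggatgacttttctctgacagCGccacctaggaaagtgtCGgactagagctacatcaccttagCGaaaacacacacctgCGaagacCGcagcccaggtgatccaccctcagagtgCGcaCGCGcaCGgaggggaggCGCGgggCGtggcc
Ezh2, chr6:47545030-47545279 of mm9, minus strand: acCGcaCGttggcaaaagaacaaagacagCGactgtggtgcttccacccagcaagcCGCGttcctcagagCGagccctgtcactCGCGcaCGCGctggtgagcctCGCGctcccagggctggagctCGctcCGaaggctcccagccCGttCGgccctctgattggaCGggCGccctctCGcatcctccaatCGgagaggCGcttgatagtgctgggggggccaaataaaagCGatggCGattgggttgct
The Ezh1 window holds 14 CG and the Ezh2 window 23, and 29.4% and 13.3% of the 32851 windows of the table hold at least as many. The 10 genes have 14 windows in the table, since Dnmt1 and Dnmt3a have 3 starts each. Of these 14 windows, 12 hold at least 10 CG, as do 37.8% of all windows, and the exceptions are Dnmt1 starts with 7 and 2. All windows were not limited to genes with a value in these libraries, as the 10 genes have, and 2 of the Dnmt3a windows overlap. The most CG-rich is that of Tet2, with 51. The CG content of a window is a description of sequence and no methylation was measured.

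Ezh2, Eed and Dnmt1 were the 3 highest of the 10 genes in every library, and Tet1 and Tet2 the 2 lowest. Over the 4 libraries the mean was 88.2 FPKM for Ezh2, 76.0 for Eed and 47.5 for Dnmt1, followed by Suz12 with 21.9, Dnmt3b with 14.7, Dnmt3a with 5.86 and Ezh1 with 4.68. Tet3, Tet2 and Tet1 had 3.27, 1.60 and 1.27. The order of the first 3 varied between libraries. In WT HSC, Dnmt1 had 49.9 FPKM and Eed 48.6, with intervals of 46.5 to 53.6 and 43.2 to 54.5, so these neighbours did not differ beyond counting error. Intervals here and below are exact 95% Poisson or binomial intervals on the estimated fragments, 19 for the least covered value and 1368 for the most. They cover counting error only, and amplified cDNA is not made of independent molecules. They also assume the longest annotated coding transcript of each gene, and Dnmt3a, for one, has 13 coding transcripts. If the FPKM rest on a shorter transcript, the fragments are fewer and the intervals wider.

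**Figure D1:**
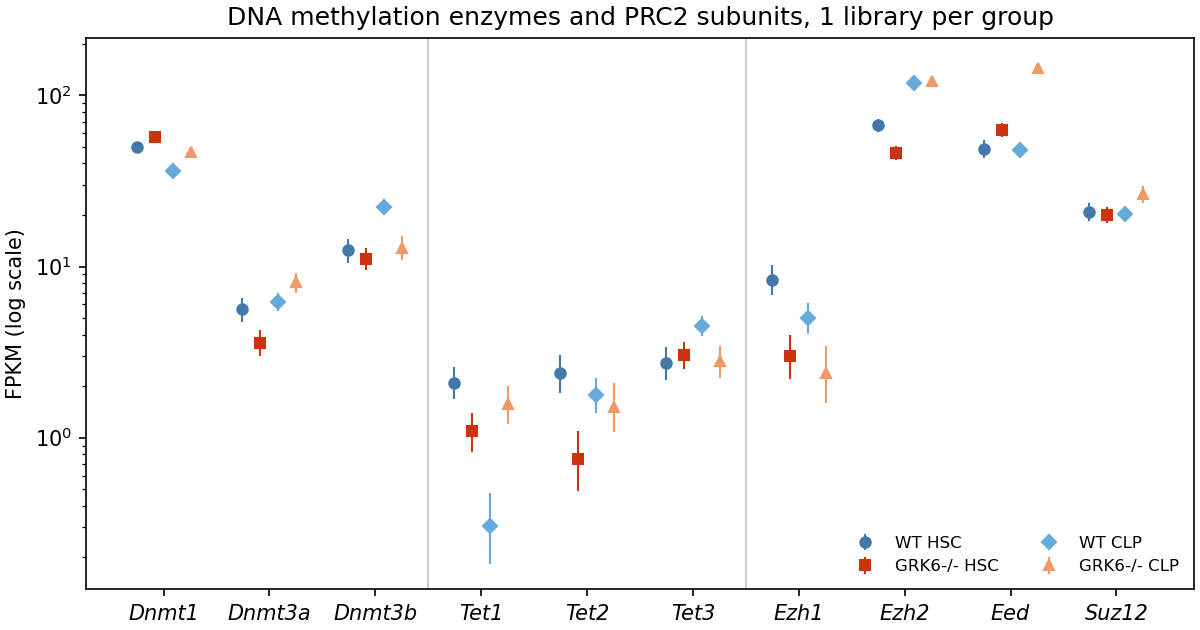
FPKM (log scale) of the 10 genes, 1 point per library, with 95% intervals that cover counting error only; grey lines part the DNA methyltransferases, the TET enzymes and PRC2. Suz12 and Dnmt1 lay within 1.32-fold and 1.57-fold over the 4 libraries, whereas Tet1 ranged from 0.303 to 2.10 FPKM.

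Among all genes FPKM were lower for longer transcripts, and the low values of the TET genes stand beside that. In WT HSC the median was 30.5 FPKM for genes with a coding transcript under 1.5 kb and 2.11 FPKM for the 297 genes of 9 kb or more. Reverse transcription started from the poly(A) tail, and the part of this in the values by length was not tested. Set beside genes within 20% of its own length, Dnmt1 was above 93.3% to 97.8% of them in the 4 libraries, Ezh2 above 87.5% to 96.6% and Eed above 82.0% to 96.0%. Suz12 was above 80.7% to 85.0%, Dnmt3b above 69.8% to 83.0% and Dnmt3a above 65.0% to 74.7%. Tet3 (53.8% to 64.8%), Tet2 (31.7% to 48.6%), Tet1 (32.0% to 51.5%) and Ezh1 (34.5% to 62.1%) were near the middle of genes of their length.

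**Figure D2:**
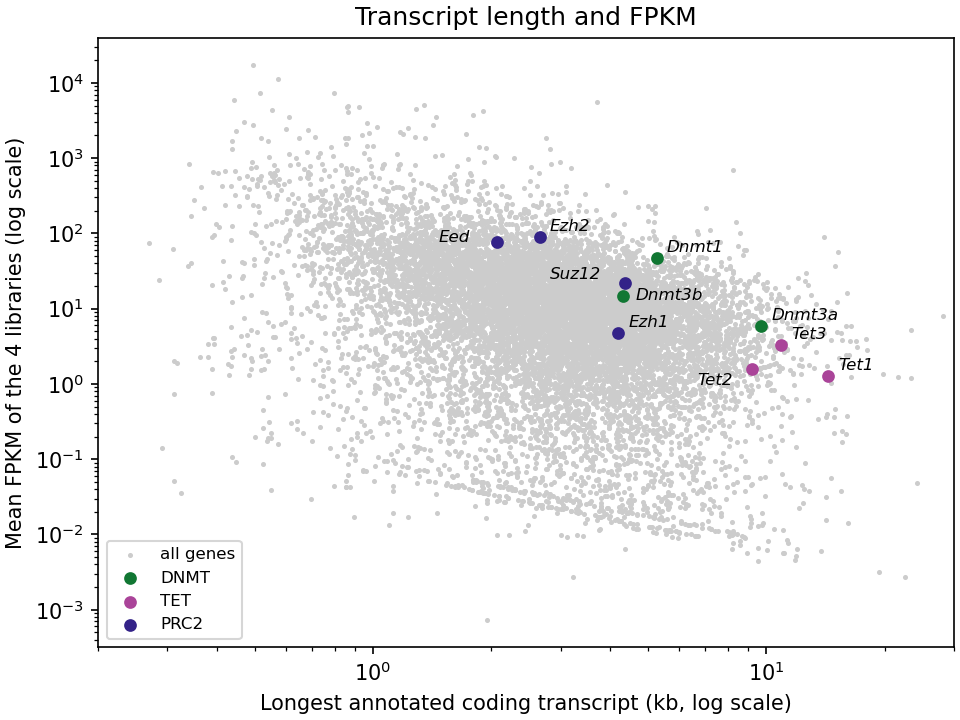
Mean FPKM of the 4 libraries against the longest annotated coding transcript (both log scales) for all kept genes with an annotated coding transcript (grey) and the 10 genes (coloured by family). Tet1, Tet2, Tet3 and Dnmt3a have transcripts over 9 kb, where FPKM of all genes were low, and Dnmt1 stands out above genes of its length.

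Among the DNA methyltransferases, Dnmt1 had 49.9 (WT) and 57.0 FPKM (GRK6-/-) in HSC and 36.4 (WT) and 46.6 FPKM (GRK6-/-) in CLP. It was 1.14-fold (interval 1.04 to 1.25) higher in the GRK6-/- than in the WT library of HSC and 1.28-fold (1.16 to 1.42) higher in that of CLP. Both differences were small beside those of other genes, since 84.2% of genes in HSC and 78.2% in CLP differed by more on the log2(FPKM + 1) scale.

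Dnmt3b, one of the pair that places new methyl marks, had 12.4 (WT) and 11.1 FPKM (GRK6-/-) in HSC and 22.2 (WT) and 12.9 FPKM (GRK6-/-) in CLP. The library labelled WT CLP was thus the high one, 1.79-fold (1.48 to 2.16) above WT HSC and 1.73-fold (1.43 to 2.09) above GRK6-/- CLP. Between the HSC libraries the interval of the ratio, 0.718 to 1.11, included 1.

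Dnmt3a had 5.61 (WT) and 3.57 FPKM (GRK6-/-) in HSC and 6.20 (WT) and 8.07 FPKM (GRK6-/-) in CLP. Its lowest value was in GRK6-/- HSC, 1.57-fold (1.24 to 1.99) below WT HSC, and its highest in GRK6-/- CLP, 1.30-fold (1.08 to 1.56) above WT CLP. Dnmt3b exceeded Dnmt3a in every library, by 2.22-fold (WT) and 3.11-fold (GRK6-/-) in HSC and by 3.58-fold (WT) and 1.59-fold (GRK6-/-) in CLP. Their transcripts differ in length, with 4.32 kb for Dnmt3b and 9.69 kb for Dnmt3a. Beside genes of like length, Dnmt3b and Dnmt3a were above 72.2% and 71.2% in WT HSC and 69.8% and 65.0% in GRK6-/- HSC. In WT CLP they were above 83.0% and 71.0%, and in GRK6-/- CLP the order was reversed, with 69.8% and 74.7%. The family summed to between 64.8 and 71.7 FPKM, so that the total was nearly level while the members differed.

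Dnmt3l, the cofactor of these enzymes in germ cells, which has no catalytic activity, had a row only in WT HSC, with 1.10 FPKM.

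The TET genes were low in all libraries and rested on few fragments, 19 to 215 per value. Tet1 had 2.10 (WT) and 1.09 FPKM (GRK6-/-) in HSC and 0.303 (WT) and 1.58 FPKM (GRK6-/-) in CLP. WT CLP was the low library, with an estimated 19 fragments, 6.91-fold (4.17 to 12.0) below WT HSC and 5.20-fold (3.08 to 9.21) below GRK6-/- CLP. On the log2(FPKM + 1) scale, which compresses low values, the difference between the CLP libraries was 0.98 and thus just short of the 2-fold change.

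Tet2 had 2.37 (WT) and 0.753 FPKM (GRK6-/-) in HSC and 1.77 (WT) and 1.51 FPKM (GRK6-/-) in CLP. The low library was GRK6-/- HSC, with an estimated 26 fragments, 3.15-fold (1.97 to 5.19) below WT HSC. The CLP libraries differed 1.17-fold, with an interval of 0.782 to 1.78, which was not detectable at this depth.

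Tet3 had 2.73 (WT) and 3.03 FPKM (GRK6-/-) in HSC and 4.52 (WT) and 2.79 FPKM (GRK6-/-) in CLP. It was highest in WT CLP, 1.62-fold (1.25 to 2.11) above GRK6-/- CLP, while the interval of the ratio between the HSC libraries, 0.839 to 1.48, included 1. Tet3 led the family in every library, though in WT HSC it was 1.15-fold Tet2 with an interval of 0.821 to 1.62. In WT HSC the 3 genes lay between 2.10 and 2.73 FPKM, and in WT CLP between 0.303 and 4.52.

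Of the PRC2 subunits, Ezh1 was lower in both libraries labelled GRK6-/-. It had 8.35 (WT) and 3.01 FPKM (GRK6-/-) in HSC and 4.997 (WT) and 2.37 FPKM (GRK6-/-) in CLP, with an estimated 28 fragments behind the last. The GRK6-/- library was 2.77-fold (1.95 to 3.99) below WT in HSC and 2.10-fold (1.37 to 3.34) below in CLP. The log2 fold changes were -1.22 and -0.83. The lower of the WT values was above the higher of the GRK6-/- values. Within each population, the sum of erythroid markers was higher in the GRK6-/- library, where Ezh1 was lower. Between the WT libraries this did not hold, since Ezh1 and the erythroid sum were both lower in CLP. Of the 9 erythroid markers, 3 (Hba-a1, Hbb-b1 and Hbb-b2) were not among the genes kept. Symbols named in rows with several genes were left out, so whether these 3 were detected is not known here. The markers kept summed in HSC to 38.1 (WT) and 746.4 FPKM (GRK6-/-). In CLP they summed to 19.8 (WT) and 17533 FPKM (GRK6-/-), and most of the latter was Hba-a2, with 17219.5 FPKM. Cells were sorted as Lin-, and the antibodies of the study include one to an erythroid marker and others to B cell markers. The part of such cells in the level of Ezh1 was not tested, and in pooled libraries fewer cells of a type and less RNA per cell cannot be told apart.

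Ezh2 separated by population. It had 67.1 (WT) and 46.1 FPKM (GRK6-/-) in HSC and 118.3 (WT) and 121.5 FPKM (GRK6-/-) in CLP. Both CLP libraries were above both HSC libraries, 1.76-fold (1.59 to 1.95) between the WT libraries and 2.64-fold (2.35 to 2.96) between the GRK6-/- libraries. Within CLP the genotypes had a ratio of 1.03 (0.943 to 1.12), and within HSC the GRK6-/- library was 1.46-fold (1.28 to 1.66) below WT. A list of 21 replication and mitosis genes summed to 2014 (WT) and 1777 FPKM (GRK6-/-) in HSC and to 2434 (WT) and 2466 FPKM (GRK6-/-) in CLP, the same order of libraries as Ezh2. The median of the list did not follow Ezh2, with 62.3 (WT) and 60.8 FPKM (GRK6-/-) in HSC and 71.7 (WT) and 49.0 FPKM (GRK6-/-) in CLP, so that it was lowest where Ezh2 was highest. The part of the cell cycle in the level of Ezh2 was not tested.

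Eed stood apart in 1 library. It had 48.6 (WT) and 62.9 FPKM (GRK6-/-) in HSC and 47.7 (WT) and 144.8 FPKM (GRK6-/-) in CLP. The last was 3.04-fold (2.70 to 3.42) above WT CLP and 2.30-fold (2.06 to 2.58) above GRK6-/- HSC, with log2 fold changes of 1.58 and 1.19. That library had the highest sums of erythroid, B lineage, T lineage and stem and progenitor markers, but not of CLP, myeloid or megakaryocyte markers. The 6 B lineage markers summed to 886.0 FPKM there and to between 35.5 and 90.3 in the other libraries, without Pax5, which was not among the genes kept. The part of cells with any of these markers in the level of Eed was not tested.

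Suz12 was the most even of the 10 genes, with 20.9 (WT) and 20.0 FPKM (GRK6-/-) in HSC and 20.2 (WT) and 26.4 FPKM (GRK6-/-) in CLP. The first 3 libraries lay within their counting intervals, and GRK6-/- CLP was 1.31-fold (1.12 to 1.52) above WT CLP.

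Ratios of FPKM within a library do not depend on how libraries were scaled to each other, and they showed that the PRC2 genes differed unequally between libraries. In HSC, Ezh2 over Ezh1 was 8.03 (6.48 to 10.0) for WT and 15.3 (11.3 to 21.0) for GRK6-/-, and in CLP it was 23.7 (19.2 to 29.6) for WT and 51.2 (35.1 to 77.4) for GRK6-/-. It was higher in CLP than in HSC at each genotype and higher in the GRK6-/- library of each population, and only the intervals of GRK6-/- HSC and WT CLP overlapped. Ezh2 over Eed was above 1 in both WT libraries, 1.38 in HSC and 2.48 in CLP, and below 1 in both GRK6-/- libraries, 0.733 and 0.839. Eed over Suz12 was 2.33 in WT HSC and 2.36 in WT CLP, against 3.15 in GRK6-/- HSC and 5.48 in GRK6-/- CLP. Summed over the 4 subunits, PRC2 had 144.9 (WT) and 131.9 FPKM (GRK6-/-) in HSC and 191.2 (WT) and 295.0 FPKM (GRK6-/-) in CLP.

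**Figure D3:**
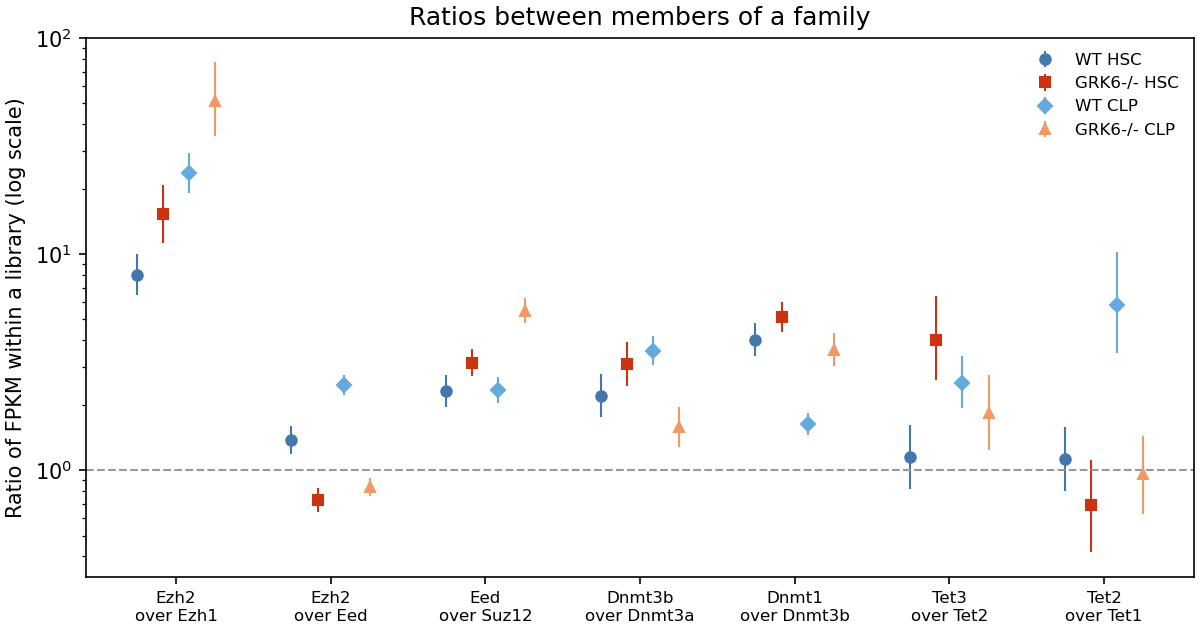
Ratios of FPKM between genes of a family within each library (log scale), 1 point per library, with 95% intervals that cover counting error only; the dashed line marks a ratio of 1. Ezh2 over Ezh1 ranged from 8.03 in WT HSC to 51.2 in GRK6-/- CLP, and Ezh2 over Eed was above 1 in both WT libraries and below 1 in both GRK6-/- libraries.

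To set these genes beside the rest, the fold threshold of the study, 2-fold in either direction, was applied to FPKM + 1 without its P value, for which the files hold no counts. For GRK6-/- HSC against WT HSC, 1 of the 10 genes passed, Ezh1, which was lower, where 37.4% of 11624 genes passed, 19.3% higher and 18.0% lower. For GRK6-/- CLP against WT CLP, 1 of 10 passed, Eed, which was higher, where 50.0% of 11191 genes passed, 26.6% higher and 23.4% lower. Over the 10 genes the median size of the log2 fold change was 0.45 (HSC) and 0.46 (CLP), and over all genes it was 0.72 and 0.9995. All genes include those with a value in only 1 of the libraries compared, whereas the 10 genes had a value in each. Among genes with at least 1 FPKM in both libraries compared, 32.0% passed in HSC and 40.5% in CLP. The share past the threshold depended on level. Among genes with a mean of 10 to 100 FPKM it was 35.6% in HSC and 48.1% in CLP, and 0 of 5 and 1 of 4 of the genes described here in that range passed. Among genes with a mean of 1 to 10 FPKM, 50.8% and 66.2% passed, with 1 of 5 and 0 of 4 here. No test was made of these shares, because the list was chosen with values known.

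In HSC, 3 of the 10 genes were higher and 7 lower in the library labelled GRK6-/-, with a median log2 fold change of -0.34 against 0.05 over all genes. In CLP, 6 were higher and 4 lower, with a median of 0.19 against 0.05. Between the populations 5 genes had the same sign (Dnmt1 and Eed higher, Dnmt3b, Tet2 and Ezh1 lower in the GRK6-/- libraries) and 5 the opposite sign, and of 8246 genes with a value in all libraries 50.4% had opposite signs. Signs were counted whatever the counting error, and the interval of the ratio included 1 for Dnmt3b, Tet3 and Suz12 in HSC. In CLP it included 1 for Tet2 and Ezh2.

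**Figure D4:**
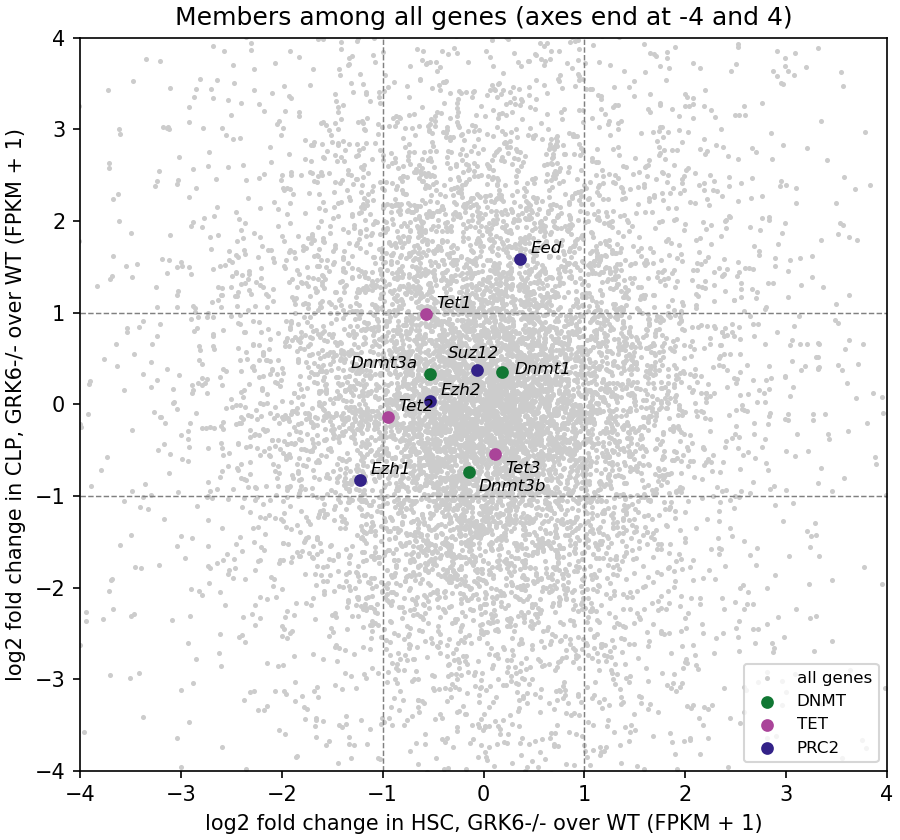
Log2 fold change of FPKM + 1, GRK6-/- over WT, in HSC (horizontal) and CLP (vertical) for 10398 genes (grey, 544 of them outside the axes) and the 10 genes (coloured by family), with dashed lines at the 2-fold change. Ezh1 lies past the line in HSC and Eed in CLP, and the other 8 genes lie inside all lines, Tet1 at 0.98 in CLP and Tet2 at -0.94 in HSC being the nearest to one.

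Between populations, 1 of the 10 genes passed for WT CLP against WT HSC, Tet1, which was lower in CLP, where 46.5% of 11202 genes passed, 21.8% higher and 24.7% lower. For GRK6-/- CLP against GRK6-/- HSC, 2 of 10 passed, Ezh2 and Eed, both higher in CLP, where 45.6% of 11708 genes passed, 22.3% higher and 23.4% lower. These comparisons use the same libraries as those between genotypes. Dnmt3a was close to the threshold in the latter, with a log2 fold change of 0.99, and was 0.12 between the WT libraries. Ezh2 had 0.81 between the WT libraries and 1.38 between the GRK6-/- libraries, higher in CLP at either genotype, and Dnmt1 had -0.45 and -0.29, lower in CLP at either genotype.

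Partner genes were taken from lists written from general knowledge. Of 24 genes linked to DNA methylation, 19 were among the genes kept and had a value in some library. In HSC 2 of 19 were past the 2-fold change upward and 4 downward in the GRK6-/- library, and in CLP 4 of 16 were upward and 1 downward. Both shares were below the 37.4% (HSC) and 50.0% (CLP) of all genes that passed. Uhrf1, which brings Dnmt1 to newly replicated DNA, had 14.2 (WT) and 21.3 FPKM (GRK6-/-) in HSC and 8.44 (WT) and 34.0 FPKM (GRK6-/-) in CLP, so that it varied more than Dnmt1. Hells, a chromatin remodeler needed for DNA methylation, had 19.5, 7.13, 2.58 and 46.2 FPKM in the same order and ran opposite in the populations. Idh1, a source of the cosubstrate of TET enzymes, also ran opposite, with 9.94 (WT) and 25.6 FPKM (GRK6-/-) in HSC and 21.9 (WT) and 8.33 FPKM (GRK6-/-) in CLP. Of the others that passed with at least 10 FPKM in a library compared, Mbd4, a glycosylase that binds methylated DNA, was higher in GRK6-/- HSC (log2 fold change 2.99), and Gadd45a and Cxxc5 were higher in GRK6-/- CLP (3.86 and 1.07).

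Of 11 genes listed as PRC2 partners, 2 were past the 2-fold change upward and 2 downward in HSC. In CLP 3 were upward and 1 downward, and of all genes 37.4% (HSC) and 50.0% (CLP) passed. The list also holds Asxl1, Asxl2 and Bap1, which are Polycomb genes but not subunits of PRC2, and Asxl2 is among those counted in both populations. Rbbp4, a histone-binding subunit of PRC2, had 48.6 (WT) and 24.0 FPKM (GRK6-/-) in HSC and 13.6 (WT) and 36.1 FPKM (GRK6-/-) in CLP, and its paralog Rbbp7 had 95.1, 145.4, 56.7 and 94.2. Jarid2, which helps to place PRC2 on chromatin, had 7.07, 3.01, 3.77 and 11.3 FPKM, and Aebp2, which joins PRC2 together with Jarid2, had 24.1, 6.56, 16.4 and 24.4. Both were lowest in GRK6-/- HSC, and Jarid2 was highest in GRK6-/- CLP, where Aebp2 was as high as in WT HSC. Asxl2 was higher in GRK6-/- HSC and lower in GRK6-/- CLP than in WT (log2 fold changes 1.49 and -1.39). Against these genes, Suz12 was even.

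The enzymes that remove the PRC2 mark varied more than those that place it. Kdm6a had 2.16 (WT) and 8.54 FPKM (GRK6-/-) in HSC and 66.3 (WT) and 13.3 FPKM (GRK6-/-) in CLP. Kdm6b had 7.12, 1.45, 19.9 and 0.263 FPKM in the same order, lower in the GRK6-/- library of each population. Uty, the Y-linked paralog of Kdm6a, had 45.1 (WT) and 0.831 FPKM (GRK6-/-) in HSC, and in CLP no row (WT) and 0.472 FPKM (GRK6-/-). The labels do not give the sex of the mice.

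PRC1 is a Polycomb complex of several forms, only some of which read the PRC2 mark, and the list used here does not part them. Of its 19 genes, 4 were past the 2-fold change upward and 6 downward in HSC, and 6 upward and 0 downward in CLP. Of all genes 19.3% were past it upward and 18.0% downward in HSC, and 26.6% and 23.4% in CLP. Those lower in HSC were Ring1, Pcgf2, Cbx2, Phc1, Phc3 and Yaf2 and those higher were Pcgf3, Cbx7, Rybp and Kdm2b, while in CLP Rnf2, Pcgf5, Pcgf6, Cbx6, Cbx7 and Rybp were higher. Bmi1, a PRC1 subunit known for stem cell self-renewal, had 10.9 (WT) and 21.2 FPKM (GRK6-/-) in HSC and 16.6 (WT) and 8.52 FPKM (GRK6-/-) in CLP. Rnf2, the ubiquitin ligase of PRC1, had 14.8, 9.19, 7.58 and 24.0 FPKM. The median size of the log2 fold change over PRC1 was 1.03 (HSC) and 0.88 (CLP), above that of all genes in HSC and below it in CLP. The 21 replication and mitosis genes had 3 past the 2-fold change upward and 2 downward in HSC, and 4 upward and 8 downward in CLP, where Pcna, Mcm7, Tyms and Rrm2 were higher and Mcm3, Top2a, Ccnb1, Ccnb2, Cdk1, Bub1, Aurka and Plk1 lower in the GRK6-/- library. In HSC, Ccnb1, Aurka and Plk1 were higher and Tyms and Top2a lower. The 5 of 21 past it in HSC stand beside 37.4% of all genes, and the 12 of 21 in CLP beside 50.0%.

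**Figure D5:**
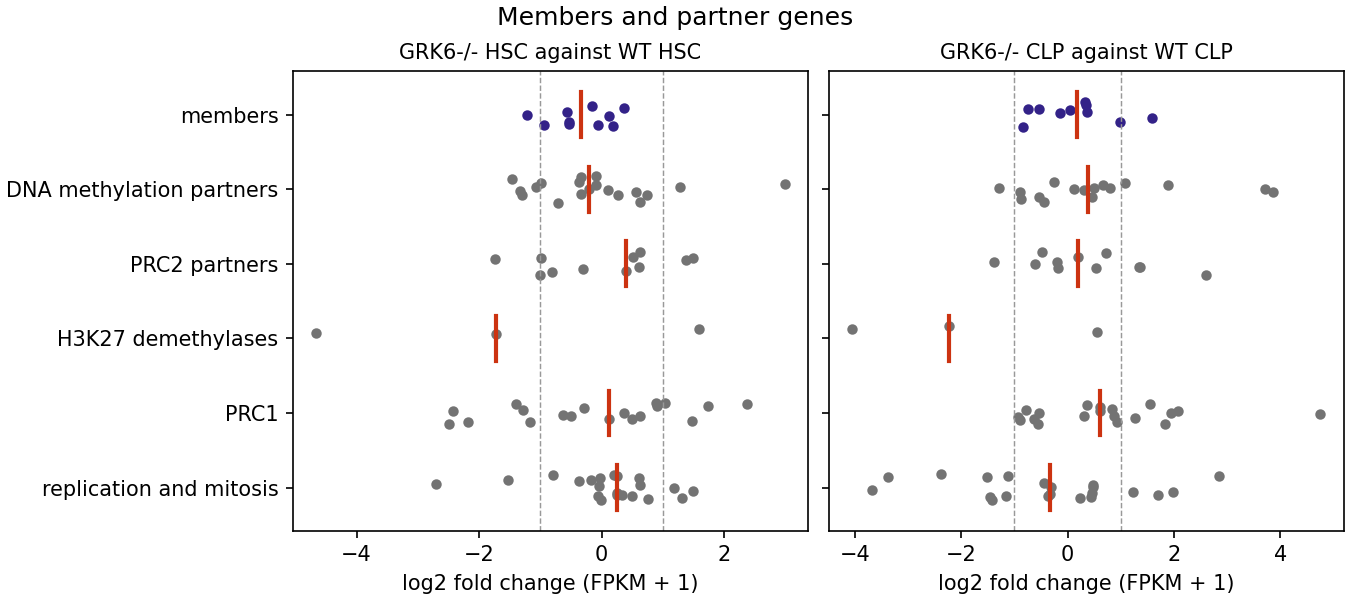
Log2 fold change of FPKM + 1 in HSC (left) and CLP (right), GRK6-/- over WT, for the 10 genes and their partner lists, 1 point per gene with a value; red bars are medians and dashed lines mark the 2-fold change. The 10 genes lie between -1.22 and 0.36 in HSC and between -0.83 and 1.58 in CLP, a narrower span than every partner list shown has in that population.

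The genes whose pattern over the 4 libraries was most like that of the highest gene of each family were sought among 6821 genes with at least 1 FPKM in all libraries, by the summed absolute difference of centred log2(FPKM + 1). For Dnmt1 they were Clk2 (0.118), Fignl1 (0.174) and Haghl (0.186), for Tet3 they included Ss18 (0.0911) and Tuba1b (0.120), and for Ezh2 they were Arid1b (0.129), Thoc2 (0.237) and Sema4d (0.264). With 4 libraries many genes share a pattern, and between 221 and 753 genes lay within a summed difference of 1 of each. Among the 10 genes themselves, Tet3 and Dnmt3b were alike in this measure (0.515), both highest in WT CLP, and 112 genes were at least as near to Tet3.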

How the data were processed

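RNA of sorted HSC and CLP was measured in 4 libraries, 1 per population and genotype. The submitters' processing notes name TopHat 1.4.0 and mm9, and the authors deposited FPKM per gene, which already include their scaling by transcript length and mapped fragments. The study names the Tuxedo suite, and the version and settings of its FPKM step are not given in the sources used here. Poly(dT) priming and PCR of single-cell cDNA can affect these values.

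Rows sharing a symbol were added up and genes lacking a row counted as 0. The 333 of 12750 symbols named in rows with several genes were left out. Log2 ratios of FPKM + 1 of at least 1 in size counted as past the threshold. Without counts or replicates no test was made. Fragments were estimated from steps in low FPKM (10% tolerance) and the longest coding transcript. The estimate was tried only on data simulated with the same lengths and formula, which cannot check how the deposited FPKM were made. The members and lists were chosen with earlier results of these data known. The rule for names took all members, partners paired with a member by role or past the threshold with at least 10 FPKM, and the 3 most alike genes, 1 of which is not reported here. Of PRC1 and cell cycle genes, all past the threshold were named. Python 3.11.15, pandas 2.3.3, scipy 1.17.1 and matplotlib 3.10.9 were used. Alternatives were the pseudocount, filters, rescaling, the highest row, a stricter threshold and, added after seeing the data, leaving out 71 genes with a renamed locus.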

Additional observations from a re-analysis of the deposited data

Results flagged for a closer look

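For 5 of the 10 genes the difference between the GRK6-/- and WT libraries had opposite signs in HSC and CLP, which flagged them. With 1 library per group no test was made of whether HSC and CLP differ. The log2 fold changes in HSC and CLP were -0.53 and 0.33 for Dnmt3a, -0.57 and 0.98 for Tet1, 0.11 and -0.54 for Tet3, -0.53 and 0.04 for Ezh2, and -0.06 and 0.37 for Suz12. The interval of the ratio included 1 for Tet3 in HSC (0.839 to 1.48), Ezh2 in CLP (0.943 to 1.12) and Suz12 in HSC (0.810 to 1.13). Those signs lay within counting error. Opposite signs were found in 50.4% of all genes with a value in all 4 libraries, a share close to the 5 of 10 here. The largest of these differences, that of Tet1 in CLP, rests on an estimated 19 fragments in WT CLP and 63 in GRK6-/- CLP.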

How the results depend on the processing

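The number of genes past the 2-fold change was 1 in HSC, 1 in CLP, 1 between the WT and 2 between the GRK6-/- populations. With a pseudocount of 0.1 it was 2 in HSC (Tet2 added) and 3 in CLP (Tet1 and Ezh1 added), while all genes past it became 49.8% and 59.2%. Requiring at least 1 FPKM in both libraries left 0 of the remaining genes between the WT populations, because Tet1 dropped out. A threshold of 2 on the log2 scale left 0 in all 4 comparisons. Of 236 log2 fold changes recomputed under the alternatives, 0 changed sign and 4 crossed the threshold, all with the pseudocount of 0.1, among them Dnmt3a between the GRK6-/- populations. Tet1 moved most, to 2.06 in CLP and -2.44 between the WT populations, and with that pseudocount both values lay inside the counting interval of its FPKM ratio. Rescaling shifted the values by at most 0.035. No paired analysis was possible because each comparison set 1 library against 1 and the labels give no replicate numbers. A fit of genotype and population over all 4 libraries was not run. Depth limits Tet1, Tet2 and Ezh1 most, with as few as 19, 26 and 28 estimated fragments.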
